A study of Mus musculus with 8 samples.

Results

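Eif4a1 and 8 relatives or partners of the cap-binding complex eIF4F were followed in 8 mouse leukaemia RNA-seq libraries. The 9 genes were chosen by symbol: Eif4a1, Eif4a2, Eif4a3, Eif4e, Eif4g1, Eif4g2, Eif4g3, Eif4b and Eif4h. All 9 had a row among the 18860 genes of the files, and all 9 passed the filter on low values that left 14679 genes for testing. The rule names symbols and uses no measured value. Eif4a1 lies in the 11B3 interval of chromosome 11, next to Trp53, so the questions are whether its transcript follows the loss of 1 copy and whether the levels of its relatives or partners differ alongside.

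eIF4F assembles on the 5′ cap of an mRNA and prepares it for the ribosome. Eif4e encodes the cap-binding subunit, the Eif4g genes encode the scaffold, and Eif4a1 and Eif4a2 encode closely related forms of eIF4A, a DEAD-box RNA helicase that unwinds the 5′ untranslated region. Eif4b and Eif4h encode cofactors that stimulate the helicase, and Eif4a3, despite its name, encodes a helicase of the exon junction complex in the nucleus.

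The 11B3-deleted group (n = 4) carried the genotype 11B3fl/p53fl;shNf1;shMll3;Vav1-Cre, in which 1 chromosome 11 can lose the whole 11B3 interval and the other can lose Trp53 alone. The p53-loss-only group (n = 4) carried p53fl/fl;shNf1;shMll3;Vav1-Cre, in which both copies of Trp53 can be lost and the neighbouring genes stay. Both groups shared the C57BL/6 strain, the hairpins against Nf1 and Mll3, and Vav1-Cre, a recombinase driven in blood cells. The leukaemia cells came from bone marrow of moribund mice, 4 lines per cohort; no source used here says whether each line was a separate animal or clone, and a p-value here can speak only for how far these libraries scatter. In bulk RNA, fewer cells of a type and less RNA per cell cannot be told apart.

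Recovered totals were 30591456 to 35719495 reads in 11B3-deleted libraries and 30502718 to 33365364 reads in p53-loss-only libraries. All 12 myeloid markers listed (among them Mpo, Elane and Csf1r) were detected, with a summed level of 172125 to 631474 in 11B3-deleted libraries and 206226 to 413095 in p53-loss-only libraries. The summed level of 8 B cell markers was 378 to 48394 in 11B3-deleted libraries, where the highest was replicate 3 and the next 1424, and 397 to 2136 in p53-loss-only libraries. That of 11 erythroid markers was 11702 to 146508 in 11B3-deleted libraries, highest in replicate 1, and 2704 to 37255 in p53-loss-only libraries. The sums were 361 to 1967 in 11B3-deleted libraries and 766 to 1204 in p53-loss-only libraries for 9 T and NK cell markers. They were 384 to 2541 in 11B3-deleted libraries and 713 to 1880 in p53-loss-only libraries for 7 megakaryocyte markers. For 8 stromal and endothelial markers they were 2529 to 16148 in 11B3-deleted libraries and 5232 to 8437 in p53-loss-only libraries. Counted by gene, 10 of 12 myeloid markers had a lower mean log2 value in 11B3-deleted libraries (median log2 difference -0.32). All 8 B cell markers (median 1.83), all 11 erythroid markers (0.73) and all 8 stromal and endothelial markers (0.38) had a higher one. None of these markers was at an unadjusted p under 0.05 in limma. With each library left out in turn, the number with a higher mean was 2 to 5 for myeloid, 6 to 8 for B cell, 6 to 11 for erythroid and 4 to 8 for stromal and endothelial markers. No detected marker was at 0 in all libraries, and the part of other cells in the results below was not tested beyond the values given without those libraries.

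Eif4a1 mRNA was lower in every 11B3-deleted library than in every p53-loss-only library, at about 53% of the p53-loss-only level. Its deposited values, which are reads scaled for depth plus 1 and are called scaled reads from here on, were 11789.9, 7114.2, 13837.4 and 9272.2 in 11B3-deleted libraries, against 18203.7, 20661.2, 16209.7 and 22833.5 in p53-loss-only libraries. The lowest 11B3-deleted library was replicate 2 and the highest was replicate 3, still below the lowest p53-loss-only library. The log2 difference was -0.92 (SE 0.23, 95% interval -1.43 to -0.41), or 52.7% of the p53-loss-only level with an interval of 37.0% to 75.0%. This check follows the labels, since Eif4a1 is among the genes that the 11B3fl allele removes.

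The difference had an unadjusted p of 0.00266 in limma, and the Benjamini-Hochberg adjusted p over all 14679 genes was 0.946. Adjusted p was 0.996 with edgeR's quasi-likelihood test and 0.107 with DESeq2, and over 15 alternatives it ranged from 0.107 to 0.9999. An exact two-sided permutation test of Eif4a1 alone gave p = 0.0286 over 70 arrangements, the smallest p that 4 against 4 libraries allow. Without 11B3-deleted replicate 3, the library with the B cell transcripts, the log2 difference was -1.07, and without replicate 1, highest in erythroid transcripts, it was -0.99.

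Of the 9 genes, 0 passed an adjusted p of 0.05 in limma, edgeR or DESeq2. The same thresholds were passed by 0.0136% of all tested genes in limma, 0.00681% in edgeR and 0.501% in DESeq2. Eif4a1 was the 1 gene of the 9 at an unadjusted limma p under 0.05, where 3.56% of tested genes were. It was also the 1 gene under that threshold in edgeR, where 4.2% of tested genes were, and in DESeq2, where 6% were. It was the 1 gene of the 9 whose groups did not overlap, where 2.15% of tested genes did not.

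**Figure D1:**
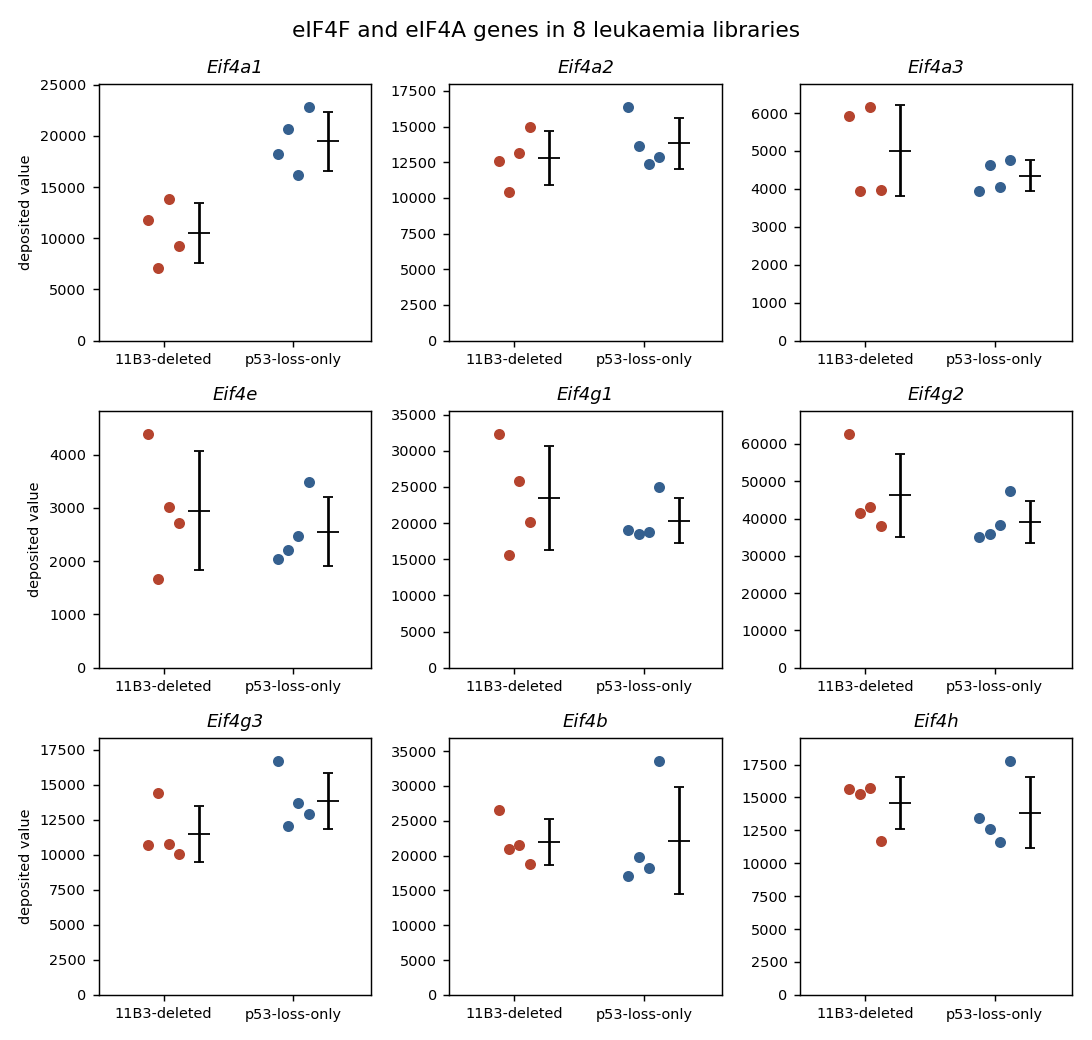
Deposited values of each of the 9 genes by library, on linear axes from 0 that differ between panels; 11B3-deleted libraries are left and p53-loss-only libraries right, and the bars give mean ± SD (n = 4 each). Eif4a1 shows 2 separate groups, at most 13837.4 in 11B3-deleted libraries and at least 16209.7 in p53-loss-only libraries, and in the other 8 panels the groups overlap.

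The plot of values by library shows the separation of Eif4a1 beside the overlap of the other genes. Because reads of closely related genes can be confused, the coding sequences of the helicases were compared in the region around the motif that names the DEAD-box family. Each line gives 96 coding bases, 5′ to 3′, from GENCODE M21 transcripts (GRCm38), with the codons of the DEAD motif in capitals. The motif was searched on the coding strand in the reading frame as codons for aspartate or glutamate, aspartate or glutamate, alanine, and aspartate or glutamate; 8.23% of 21600 protein-coding genes hold it at least once in their longest coding sequence.
Eif4a1: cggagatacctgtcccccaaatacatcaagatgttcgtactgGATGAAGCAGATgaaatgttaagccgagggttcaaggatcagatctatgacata
Eif4a2: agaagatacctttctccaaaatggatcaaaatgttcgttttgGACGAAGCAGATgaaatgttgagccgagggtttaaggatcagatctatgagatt
Eif4a3: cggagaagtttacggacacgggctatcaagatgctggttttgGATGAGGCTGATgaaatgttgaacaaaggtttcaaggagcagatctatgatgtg
Eif4a-ps4: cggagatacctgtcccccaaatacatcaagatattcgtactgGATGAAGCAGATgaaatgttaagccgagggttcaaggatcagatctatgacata

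In this window Eif4a2 differed from Eif4a1 at 15 of 96 bases and Eif4a3 at 31. Over the aligned coding sequence, Eif4a1 was identical to Eif4a2 at 78.16% of 1218 bases and to Eif4a3 at 67.27% of 1207 bases. No stretch of 36 bases of the longest coding transcript of Eif4a1 occurred in an annotated transcript of Eif4a2. A read of 36 exact bases from that transcript therefore matched no annotated transcript of Eif4a2.

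The processed pseudogene Eif4a-ps4 was different. It matched the coding sequence of Eif4a1 at 99.92% of 1218 bases, with the single substitution G534A, counted from the first coding base of Eif4a1. Of 1739 stretches of 36 bases in Eif4a1, 67.2% also occurred in another annotated gene, against 17.8% for Eif4a2 and 38.9% for Eif4a3. Neither the read length nor the treatment of such shared reads is given in the sources used here, so levels of Eif4a1 and of Eif4a3 per length are uncertain.

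The row named Eif4a-ps4 carries another identifier than the annotated gene whose sequence is shown, so it may not count that same locus. It had 468.7, 264.7, 522.5 and 343.6 scaled reads in 11B3-deleted libraries, against 572.0, 715.7, 587.6 and 834.8 in p53-loss-only libraries. The groups did not overlap, and the library order was close to that of Eif4a1. Its log2 difference was -0.79 (SE 0.27), with an unadjusted p of 0.016 and an adjusted p of 0.996 in limma. Relative to Eif4a1 it stood at 3.78% ± 0.126 in 11B3-deleted libraries and 3.47% ± 0.236 in p53-loss-only libraries (SD, n = 4 each). With its value added to that of Eif4a1, the log2 difference of the sum was -0.92.

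Eif4a2, the paralogue whose protein can also enter eIF4F but is not known to replace eIF4A1 fully in cells, overlapped between the groups. It had 12576.8, 10381.4, 13147.2 and 14978.2 scaled reads in 11B3-deleted libraries, against 16378.2, 13632.9, 12391.7 and 12893.7 in p53-loss-only libraries. The highest value was in a p53-loss-only library and the lowest in an 11B3-deleted one. The log2 difference was -0.12 (SE 0.16, 95% interval -0.49 to 0.25, adjusted p = 0.996 in limma), so the interval reached at most 1.19-fold higher in 11B3-deleted libraries.

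Per kilobase of annotated exon, the scale used to set genes side by side, Eif4a1 averaged 2423 ± 676 scaled reads in 11B3-deleted libraries and 4494 ± 666 in p53-loss-only libraries (SD, n = 4 each). Exon length counts every base that any annotated isoform of the gene covers, so it can exceed the length of the transcripts present. Eif4a2 averaged 2392 ± 355 in 11B3-deleted libraries and 2590 ± 333 in p53-loss-only libraries. On this scale the means of both paralogues were close to each other in 11B3-deleted libraries, and Eif4a1 was the higher one in p53-loss-only libraries. By coding length Eif4a2 was the higher one in 11B3-deleted libraries, at 10433 against 8623 for Eif4a1. In p53-loss-only libraries Eif4a1 was higher by that length too, at 15990 against 11293 for Eif4a2. The sum of both transcripts by exon length, which makes no statement on the activity of the proteins, was 5076, 3586, 5655 and 4945 in 11B3-deleted libraries, against 7268, 7321, 6061 and 7683 in p53-loss-only libraries. The groups did not overlap, and the mean sum in 11B3-deleted libraries was 68.0% of that in p53-loss-only libraries.

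Eif4a1 made up 53.6%, 45.8%, 56.5% and 43.3% of the sum in 11B3-deleted libraries, against 57.8%, 65.1%, 61.7% and 68.6% in p53-loss-only libraries. The highest 11B3-deleted share, in replicate 3, lay just below the lowest p53-loss-only share, and the group means differed by -13.5 percentage points. With coding length in place of exon length, the mean shares were 44.8% in 11B3-deleted libraries and 58.5% in p53-loss-only libraries. The share itself thus depends on the length used, and the difference of -13.7 points hardly does. To restore the p53-loss-only sum at the observed Eif4a1 level, Eif4a2 would have had to be 1.80-fold its p53-loss-only level by exon length, or 1.65-fold by coding length. Both lie above the upper bound of 1.19-fold measured for Eif4a2. These needed folds are point values from group means with no interval, and compensation by Eif4a2 was not tested.

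**Figure D2:**
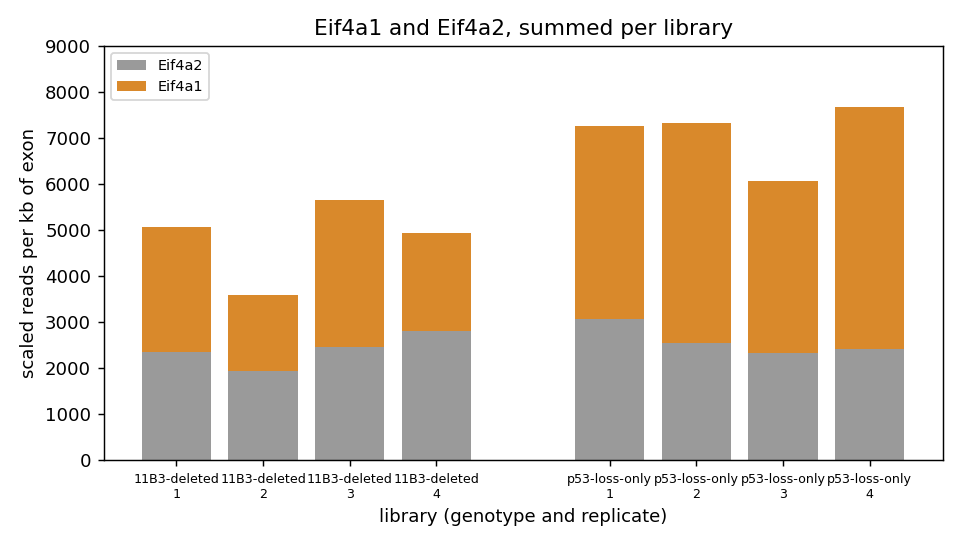
Scaled reads per kilobase of annotated exon of Eif4a2 (grey, bottom) and Eif4a1 (orange, top) in each library, 11B3-deleted left and p53-loss-only right. The stacked bars reach 3586 to 5655 in 11B3-deleted libraries and 6061 to 7683 in p53-loss-only libraries. The grey parts overlap, at 1945 to 2806 in 11B3-deleted libraries and 2321 to 3068 in p53-loss-only libraries.

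The stacked bars show that most of the gap between the groups is in the Eif4a1 part. The group means differed by -2071 scaled reads per kilobase for Eif4a1 and by -197 for Eif4a2. Eif4a3 had 5920.3, 3953.6, 6159.8 and 3974.5 scaled reads in 11B3-deleted libraries, against 3956.0, 4619.3, 4041.7 and 4762.2 in p53-loss-only libraries. The 11B3-deleted libraries formed 2 levels, with replicates 1 and 3 above every p53-loss-only library and replicates 2 and 4 near the lowest. Its log2 difference was 0.18 (SE 0.19, 95% interval -0.26 to 0.61, adjusted p = 0.996 in limma), 0.084 without 11B3-deleted replicate 1 and 0.065 without replicate 3, the libraries where it was high. Eif4a3 also lies on chromosome 11 but outside the 11B3 list of neighbours used here.

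The cap-binding subunit gene Eif4e had 4386.6, 1665.8, 3013.5 and 2726.6 scaled reads in 11B3-deleted libraries, against 2046.9, 2215.6, 2480.2 and 3489.6 in p53-loss-only libraries. Both the highest and the lowest value were in 11B3-deleted libraries, a 2.63-fold range that was the widest of the 9 genes in that group. The log2 difference was 0.15 (SE 0.30, 95% interval -0.52 to 0.82), and without 11B3-deleted replicate 1 it was -0.065.

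Among the scaffolds, Eif4g1 encodes the main eIF4G of the complex. It had 32297.2, 15634.0, 25848.6 and 20117.0 scaled reads in 11B3-deleted libraries, against 18984.4, 18539.2, 18747.1 and 24943.0 in p53-loss-only libraries. The p53-loss-only libraries lay within the span of the 11B3-deleted ones. The log2 difference was 0.17 (SE 0.24, 95% interval -0.37 to 0.70), and without 11B3-deleted replicate 1 it was -0.0024.

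Eif4g2 encodes DAP5, a scaffold that lacks the eIF4E-binding region and serves cap-independent initiation. It had 62631.1, 41393.3, 43046.4 and 38043.5 scaled reads in 11B3-deleted libraries, against 35097.5, 35778.3, 38202.6 and 47345.3 in p53-loss-only libraries. Replicate 1 of the 11B3-deleted group stood highest. In the p53-loss-only group, replicates 3 and 4 lay above 11B3-deleted replicate 4, and replicate 4 also lay above 11B3-deleted replicates 2 and 3. Its log2 difference was 0.23 (SE 0.21, 95% interval -0.24 to 0.69), and without 11B3-deleted replicate 1 it was 0.071.

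Eif4g3 encodes a second eIF4G scaffold. It had 10725.7, 14412.5, 10806.4 and 10045.2 scaled reads in 11B3-deleted libraries, against 16689.9, 12040.2, 13732.7 and 12904.4 in p53-loss-only libraries. Of the 11B3-deleted libraries, replicate 2 alone came within the p53-loss-only range. Its log2 difference of -0.27 (SE 0.17, 95% interval -0.66 to 0.12, unadjusted p = 0.148 and adjusted p = 0.996 in limma) had the smallest p among the 8 genes other than Eif4a1.

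The helicase cofactor gene Eif4b had 26549.7, 20966.2, 21451.0 and 18772.4 scaled reads in 11B3-deleted libraries, against 17119.1, 19726.3, 18273.4 and 33531.4 in p53-loss-only libraries. Replicate 4 of the p53-loss-only group was the highest of all 8 libraries and set the widest range of that group, 1.96-fold. The log2 difference was 0.029 (SE 0.23, 95% interval -0.50 to 0.56), with the sign turned in edgeR (-0.028) and DESeq2 (-0.013) and a range of -0.077 to 0.25 with each library left out. The other cofactor gene, Eif4h, had 15664.9, 15272.4, 15697.4 and 11672.1 scaled reads in 11B3-deleted libraries, against 13443.8, 12588.8, 11626.3 and 17748.6 in p53-loss-only libraries. The groups overlapped, and its log2 difference was 0.08 (SE 0.18, 95% interval -0.33 to 0.49), from 0.0041 without p53-loss-only replicate 3 to 0.21 without p53-loss-only replicate 4.

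Of the 8 genes other than Eif4a1, 2 had a lower mean log2 value in 11B3-deleted libraries and 6 a higher one, with a median log2 difference of 0.12 against 0.01 over all tested genes. A higher mean was found for 51.6% of tested genes. The count is not stable to the library left out, since without 11B3-deleted replicate 1 only 3 of the 9 genes had a higher mean. The 95% intervals of the 8 genes together span -0.66 to 0.82.

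**Figure D3:**
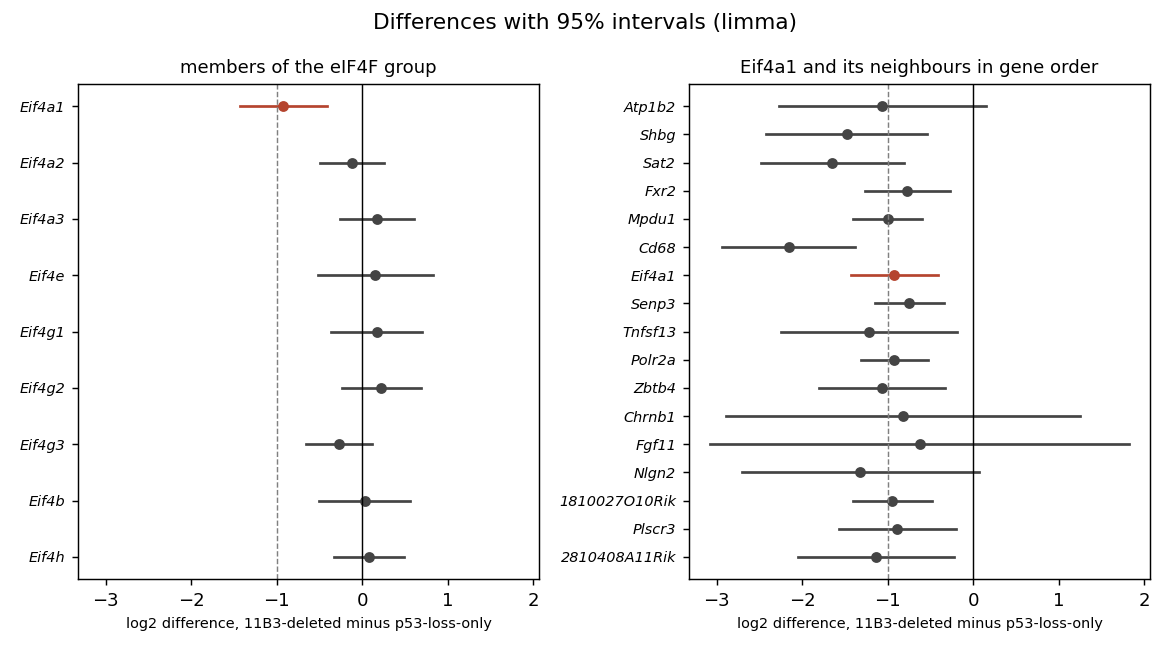
Log2 difference, 11B3-deleted minus p53-loss-only, with its 95% interval from limma, for the 9 genes (left) and for Eif4a1 among its tested neighbours in gene order (right); the dashed line marks a halving and Eif4a1 is red. The interval of Eif4a1 runs from -1.43 to -0.41, and the intervals of the other 8 genes on the left all include 0. The point estimates of the 16 neighbours on the right all lie below 0. The intervals of Atp1b2, Chrnb1, Fgf11 and Nlgn2 reach above 0.

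The plot of differences sets Eif4a1 beside genes of its own pathway and beside genes of its own place. Of 21 neighbours listed in the interval, 19 had a row and 16 were tested; all 16 had a lower mean in 11B3-deleted libraries, with a median log2 difference of -1.03, or 48.9% of the p53-loss-only level; without 11B3-deleted replicate 2, 1 had a higher mean. Of these, 12 were at an unadjusted p under 0.05, where 2.38% of all tested genes were in that direction, and 10 did not overlap between groups, where 1.23% did not in that direction. In limma 0 passed an adjusted p of 0.05, where 0.0136% of all tested genes did. DESeq2 called 5 of the 16, where it called 0.501% of all tested genes.

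Eif4a1 was within the range of its neighbours, with 10 at a more negative difference and 6 at a less negative one. On one side its nearest tested neighbours were Cd68, a lysosomal protein of macrophages, with a log2 difference of -2.16 (SE 0.34), and Mpdu1, which acts in the use of dolichol-linked mannose, with -1.001 (SE 0.18). On the other side they were Senp3, a SUMO protease, with -0.74 (SE 0.18), and BC096441, with -1.35 (SE 0.72). BC096441 overlaps Tnfsf13, a cytokine gene, in the annotation; Tnfsf13 had -1.22 (SE 0.46), and as the sources used here do not say how overlaps were counted, both values are uncertain. Beside the value of Cd68 stand the 10 of 12 myeloid markers with a lower mean, and their part in it was not tested.

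Polr2a, which encodes the largest subunit of RNA polymerase II, gave the neighbour value closest to that of Eif4a1. It had 8076.0, 6484.7, 10861.7 and 8121.1 scaled reads in 11B3-deleted libraries, against 15320.8, 17107.1, 15523.3 and 14589.0 in p53-loss-only libraries, with no overlap. Its log2 difference was -0.92 (SE 0.17), or 52.8% of the p53-loss-only level, with an adjusted p of 0.434 in limma and 0.00645 in DESeq2. The row 1810027O10Rik, now named Tmem256, had -0.94 (SE 0.21), with an adjusted p of 0.805 in limma and 0.0149 in DESeq2.

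The transcripts of the complex were next compared within each library, where scaling for depth cancels. The ratio of Eif4a1 to Eif4g1 reads was 0.365, 0.455, 0.535 and 0.461 in 11B3-deleted libraries, against 0.959, 1.11, 0.865 and 0.915 in p53-loss-only libraries. The groups were farther apart than for Eif4a1 alone, with a gap of 0.69 on the log2 scale between the nearest libraries against 0.23. The ratio of Eif4a1 to Eif4a2 reads was 0.937, 0.685, 1.05 and 0.619 in 11B3-deleted libraries, against 1.11, 1.52, 1.31 and 1.77 in p53-loss-only libraries, with a gap of 0.08.

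Against the 8 partners, the log2 ratio of Eif4a1 differed between the groups by -1.15 (Eif4g2) to -0.65 (Eif4g3). It did not overlap between the groups for 7 of 8 partners, the exception being Eif4g3. Eif4a1 alone did not overlap either, and the share without overlap was not computed with all tested genes as partners. The count therefore says nothing particular about these partners. The widest gap was 0.78, for Eif4a3, whose log2 ratio was 1.06 ± 0.17 in 11B3-deleted libraries and 2.16 ± 0.11 in p53-loss-only libraries (SD, n = 4 each). The ratios share Eif4a1 as numerator, so they are not independent of each other or of its own difference.

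**Figure D4:**
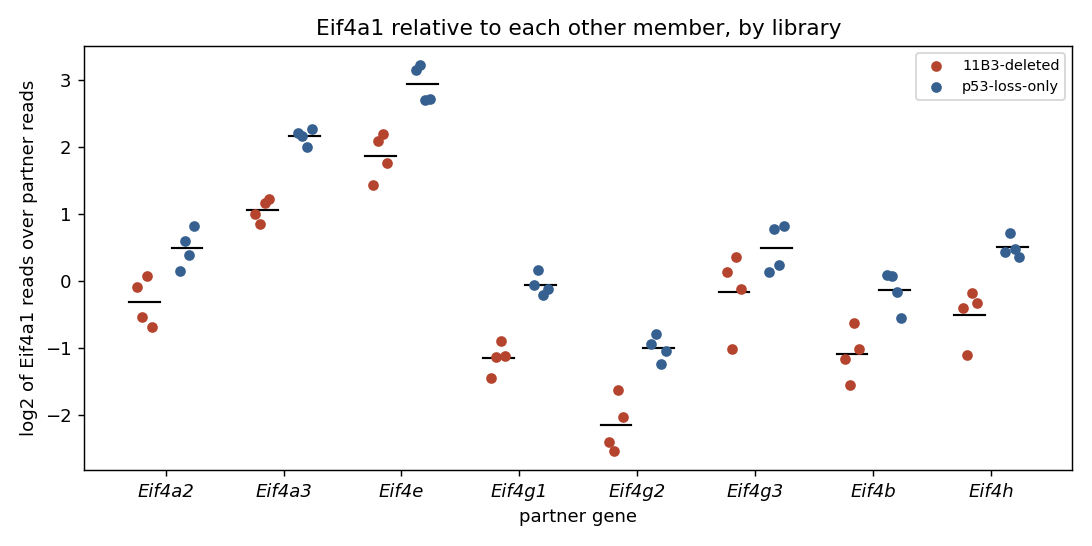
Log2 ratio of Eif4a1 reads to the reads of each other gene in each library, with 11B3-deleted left of p53-loss-only for each partner and lines at the group means (n = 4 each). The groups are apart for 7 of 8 partners, by 0.78 at the widest (Eif4a3), and overlap for Eif4g3. They are apart for Eif4a1 alone as well.

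As the plot of ratios shows, Eif4a1 was low relative to its partners in every 11B3-deleted library, Eif4g3 excepted. Ordered by mean level per kilobase of exon, Eif4a1 was 5th of the 9 genes in 11B3-deleted libraries and 2nd of 9 in p53-loss-only libraries. The order in 11B3-deleted libraries was Eif4b (4909 ± 736), Eif4g2 (4552 ± 1092), Eif4g1 (3215 ± 988), Eif4h (2626 ± 351), Eif4a1, Eif4a2, Eif4a3 (2357 ± 567), Eif4g3 (1039 ± 178) and Eif4e (491 ± 187). The ranges of neighbours in this order overlapped except between Eif4a3 and Eif4g3 and between Eif4g3 and Eif4e. The order in p53-loss-only libraries was Eif4b (4960 ± 1713), Eif4a1, Eif4g2 (3847 ± 556), Eif4g1 (2781 ± 424), Eif4a2, Eif4h (2495 ± 487), Eif4a3 (2047 ± 191), Eif4g3 (1251 ± 183) and Eif4e (426 ± 108). There the ranges of Eif4g2 and Eif4g1 did not overlap either, nor did those around Eif4g3. By coding length Eif4h came first in both groups, and Eif4a1 was again 5th in 11B3-deleted libraries and 2nd in p53-loss-only libraries. Neither length is that of the transcripts present, which was not measured, so the ranks are uncertain.

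The genes around eIF4F were then described by list. The list of regulators holds proteins that bind or modify eIF4E, eIF4A or the poly(A)-binding protein, with Mtor, Rptor, Rheb, Tsc1, Tsc2, Rps6kb1 and Rps6kb2 of the mTOR pathway upstream. Of its 21 tested rows, 15 had a higher mean in 11B3-deleted libraries, where 51.6% of all tested genes did, and 6 a lower one. The median log2 difference of these rows was 0.08. Eif4e3, a relative of Eif4e, has 2 of these rows under separate identifiers, both lower, at -0.43 and -0.47. None was at an unadjusted p under 0.05 and 0 passed adjustment in limma. The smallest p was that of Eif4ebp2, a repressor that binds eIF4E, at 0.35 (SE 0.17, with an unadjusted p of 0.0689 in limma), followed by Pabpc4, a poly(A)-binding protein, at 0.49 (SE 0.30), Paip2, which inhibits poly(A)-binding protein, at 0.28 (SE 0.19), and Eif4ebp1, another eIF4E-binding repressor, at 0.33 (SE 0.23). Pdcd4, which binds and inhibits eIF4A, was chosen after its values were seen; its log2 difference was 0.08 (SE 0.45).

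Of 33 tested initiation factors outside the complex, 3 had a lower and 30 a higher mean, with a median log2 difference of 0.10, where 51.6% of tested genes had a higher mean. Without 11B3-deleted replicate 1, the library highest in erythroid transcripts, 18 of the 33 had a higher mean. In limma, 1 was at an unadjusted p under 0.05, where 1.18% of tested genes were in that direction, and 0 passed adjustment. That gene was Eif1b, a relative of the start-codon selection factor eIF1. It had 2640.9, 2117.8, 1823.2 and 1893.2 scaled reads in 11B3-deleted libraries, against 1609.0, 1631.2, 1502.1 and 1735.7 in p53-loss-only libraries. The groups did not overlap, where 0.913% of tested genes did not in that direction. The log2 difference was 0.37 (SE 0.16), with an unadjusted p of 0.0463 and an adjusted p of 0.996 in limma. Eif2s3x, a subunit of eIF2, had 0.49 (SE 0.27), Eif1ad 0.33 (SE 0.21) and Eif1ax, which encodes eIF1A, 0.27 (SE 0.18).

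Eif4a3 works with the exon junction complex and nonsense-mediated decay, the quality control that removes mRNAs with early stop codons. Of 20 tested genes of these pathways, 17 had a higher mean, where 51.6% of all tested genes did, and 3 a lower one. The median log2 difference of the 20 was 0.17. In limma 0 passed adjustment. Casc3, a core subunit of the exon junction complex, had a log2 difference of 0.22 (SE 0.13) and did not overlap between the groups, where 0.913% of tested genes did not in that direction, while Upf1, the helicase of the decay pathway, had 0.23 (SE 0.15) and Cwc22, which brings eIF4A3 to the spliceosome, 0.39 (SE 0.29).

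The list of other helicases holds DEAD-box genes and the related Dhx29. Of its 31 tested genes, 27 had a higher mean, where 51.6% of all tested genes did, and 4 a lower one. Their median log2 difference was 0.15, and 0 were at an unadjusted p under 0.05 or passed adjustment in limma. Without 11B3-deleted replicate 1 the number with a higher mean was 19. The 4 with the smallest p were Ddx19a, of mRNA export, at 0.33 (SE 0.18), Ddx17, of splicing and transcription, at -0.26 (SE 0.15), Ddx42 at 0.25 (SE 0.15) and Ddx24 at 0.35 (SE 0.23). The log2 differences of the 31 ran from -0.26 to 0.46, against -0.92 for Eif4a1.

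**Figure D5:**
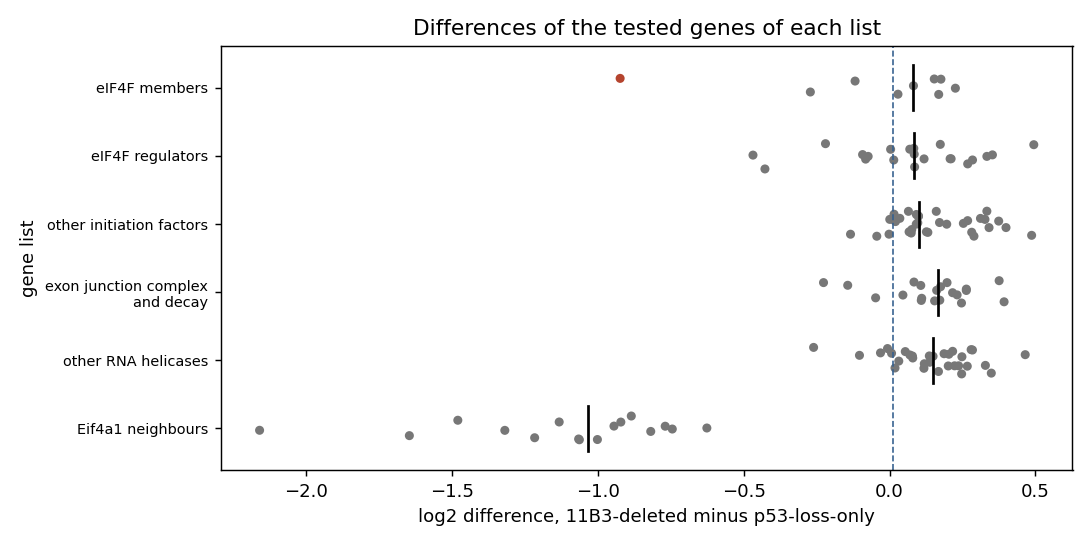
Log2 difference, 11B3-deleted minus p53-loss-only, of each tested gene in the lists (points, with small vertical jitter), with list medians as black lines, the median of all tested genes (0.01) dashed, and Eif4a1 in red. The 5 lists of translation and helicase genes have medians from 0.08 to 0.17, and the 16 neighbours of Eif4a1 have a median of -1.03.

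The plot of lists places Eif4a1 outside the range of its own pathway and inside that of its neighbours. The genes whose log2 values most resembled those of Eif4a1 over the 8 libraries were Lsmd1 (now Naa38, a subunit of an N-terminal acetyltransferase; Pearson r = 0.991), Eif4a-ps4 (0.987), Rai12 (now Elp5, of the Elongator complex; 0.981), Med11, a Mediator subunit (0.9749), and Acadvl, an enzyme of fatty acid oxidation (0.973). Besides the pseudogene, all 4 are on chromosome 11. These correlations share the group difference and the 8 libraries and are given as a description. Eif4a2 had r = 0.44, rank 1826 of the tested genes.

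With each group's mean subtracted, which leaves the variation among libraries of 1 genotype, the closest genes were Nusap1 (r = 0.995), which acts on the mitotic spindle, Rfc4 (0.994), a subunit of the DNA replication clamp loader, Blmh (0.993), a peptidase, Taf4a (0.992), a subunit of the transcription factor TFIID, and BC024479 (0.991). Among the 9 genes, Eif4a3 was the closest with r = 0.909, then Eif4g1 with 0.838 and Eif4e with 0.745. In that order they ranked only 440, 1176 and 2087 among the tested genes. The cofactors Eif4b (0.489) and Eif4h (0.459) and the scaffold Eif4g2 (0.460) were less alike, Eif4a2 had 0.327, and Eif4g3 ran opposite at -0.614. For Eif4a2 the closest genes were BC017612 (0.960), Wdyhv1 (0.956), Baiap2l1 (0.951), Gm10257 (0.950) and 2810453I06Rik (0.948), and none of the 9 genes was among them.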

How the data were processed

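Total RNA from 8 libraries was used, 4 per genotype, grouped by sample title. DESeq, HTSeq, STAR and the mouse build mm9 are named, per the submitters' processing notes, with neither role nor version. The authors' deposited signal values equal reads over a library's size factor, plus 1, judged from the values; dividing by the step recovered whole reads for 100% of values (tolerance 0.02), and edgeR on those reads called 1 gene. A floor of 3 reads equals deposited values of 3.66 to 4.29. The deposited 1 served as the pseudocount, so folds of low genes are understated.

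The 14679 genes reaching a value of 10 in 4 or more libraries entered limma with a mean-variance trend on log2 values, two-sided, with Benjamini-Hochberg adjustment at 0.05. Alternatives were edgeR and DESeq2 on recovered reads, other filters, scaling, constants, left-out libraries, a replicate block and, added after the data were seen, Eif4a-ps4 reads added to Eif4a1. The method was tested on simulated data. Within groups, all 12 pairs of libraries differed by more than sampling noise (lowest chi-square over its degrees of freedom 86.8).

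The members and lists were chosen with earlier results of these data known, so lists are described by counts and medians with no list test. Named genes are the 9 members, up to 4 per list with the smallest p, the nearest tested neighbours with Polr2a, and the 5 closest by correlation; other names were chosen after their values were seen. For 1 gene named by this rule, the result is not reported here. Marker lists are described by summed levels. GENCODE M21 (GRCm38) gave symbols for 17888 of 18860 identifiers, gene order, lengths and sequences; as the files' build differs, no coordinates are given. The files' identifier for Eif4a-ps4 differs from the one GENCODE gives that symbol. The sources used here do not say whether counting used strand. The software was pandas 2.3.3, Biopython 1.88, R 4.3.3, DESeq2 1.42.0, edgeR 4.0.16 and limma 3.58.1.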

Additional observations from a re-analysis of the deposited data

Results flagged for a closer look

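In 7 of 96 groups of 4 libraries, 1 library stood apart from the other 3 by a gap that, over the group's range, exceeded Dixon's 95% critical value; chance gives about 1 in 20. In p53-loss-only replicate 4, Eif4g1 (24943.0), Eif4b (33531.4), the initiation factor Eif1ad (2426.8) and the poly(A)-binding protein gene Pabpc1 (76851.5) were high, and Eif4ebp1 (1491.9) was low, all as deposited values. The small nucleolar RNA snoU6-77, annotated inside Eif4a1 and too low to be tested, had 84.1 in the same library. In 11B3-deleted replicate 4, Eif4h was low at 11672.1.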

How the results depend on the processing

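Genes at an adjusted p under 0.05 numbered 2 in limma, 1 with a minimum of 50, 1 with a further constant of 5, 1 with edgeR, 71 with DESeq2 and 0 to 1 with each library left out. The replicate block gave 0 genes and an unadjusted p of 0.0143 for Eif4a1; same-numbered libraries correlated at -0.41 to -0.03 over 4 pairs, so the numbers were not taken to pair them. The log2 difference of Eif4a1 kept its direction, from -1.07 to -0.75 with each library left out and from -0.93 to -0.89 otherwise. That of Eif4a2 ran from -0.20 to -0.02, the Eif4a1 share from -15.8 to -11.4 points and the sum of both from -0.65 to -0.44 on the log2 scale. Eif4a3 (0.065 to 0.28), Eif4g2 (0.071 to 0.32), Eif4g3 (-0.38 to -0.18) and Eif4h (0.0041 to 0.21) kept their signs with each library left out. Signs turned for Eif4b (-0.028 in edgeR, -0.013 in DESeq2, -0.077 to 0.25 with each library left out), Eif4e (-0.065 to 0.40) and Eif4g1 (-0.0024 to 0.35); the cause was not tested. Without 11B3-deleted replicate 2, 1 neighbour had a higher mean. Reads shared with Eif4a-ps4 limit the level of Eif4a1.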
